A study of Oryctolagus cuniculus with 9 samples.

Results

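The ligamentum flavum joins the laminae of neighbouring vertebrae and was described here as it stood without the operation that the series studies: 3 sham libraries, labelled Control, of the 9 libraries in the series. They were chosen by their label alone, and every named row of the deposited expression table was described, 23407 rows in all. The title of the series names long-term mechanical stress as what the study set out to examine. The other 6 libraries are labelled Fused, for the fused level, and ISC, for the intervertebral stress concentration level, 3 each, and enter no value below. The sham libraries are from male New Zealand white rabbits, 70 weeks old, with a sham operation. The labels give 1 protocol for all groups, an operation at 18 weeks of age in which muscle over the L3-4 level was resected and the levels on both sides were fused with instrumentation, and they do not describe what the sham operation involved. They also do not name the spinal level of the sham ligament or say whether the 3 libraries came from 3 rabbits, so the SDs below measure the spread between these libraries, which may be partly technical. No groups were compared and no test was made.

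Ligamentum flavum is the most elastic ligament of the spine. Its fibroblasts lay down elastin on a scaffold of fibrillin microfibrils, cross-link it with lysyl oxidase, and embed it among fibrillar collagens whose assembly is tuned by small leucine-rich proteoglycans. Elastin turns over very slowly in adult tissue, whereas collagens, glycoproteins and their proteases are renewed through life. Around the ligament lie epidural fat, blood vessels, the facet joints and paraspinal muscle, each of which brings its own transcripts into a bulk sample. In such a sample fewer cells of a type and less RNA per cell cannot be told apart.

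The unit throughout is the scaled read count, the reads of a gene divided by a size factor of its library. Ranks by scaled count, shares and summed scaled counts are not divided by length, so long genes weigh more in them. Other comparisons of levels between genes are made after division by the exon length in the deposited table, as scaled reads per kilobase. The 3 libraries held 1605544, 1869209 and 1661090 reads in named rows, in the order of replicates 1, 2 and 3, which is the order of every set of 3 values below. A single read was worth a scaled count of 0.943, 0.799 and 0.870, so a listed 0 allows up to 3 reads, or 2.83, 2.40 and 2.61, for counting error only. Of the 23407 rows, 13452 (57.5%) had a read in every library, 17029 had one in at least 1 library and 6378 had none. Rows at 0 in every library had a median exon length of 1047 bases, and rows detected in all had one of 2607 bases.

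Expression was concentrated in few genes. The 2911 rows with a mean scaled count of 100 or more were 12.4% of the rows and held 78.2% of the scaled reads, the 183 rows at 1000 or more held 34.3%, and the 8 rows at 10000 or more held 8.66%. In total 574 rows accounted for 50% of the mean signal, or 709 when the 13 mitochondrially encoded genes were set aside, and 5364 rows for 90%. The concentration was alike in the libraries: the 10 leading rows of each took 10.5%, 9.70% and 9.96% of its scaled reads, and the 100 leading rows 28.6%, 27.5% and 26.5%. Rows that carry only a locus identifier, with no symbol, numbered 7320 and held 3.33%.

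By the mean over the libraries the first row was EEF1A1, which delivers aminoacyl-tRNA to the ribosome (chromosome 12, 60379747 to 60382266), with scaled counts of 30521, 23081 and 25981. COX1, a mitochondrially encoded subunit of cytochrome c oxidase, had 29517, 20311 and 28476, below EEF1A1 in replicates 1 and 2 and above it in replicate 3, so the pair could not be ordered. Products of the matrix came next. COL3A1, the chain of type III collagen (chromosome 7, 129298041 to 129341606), had scaled counts of 13155, 21395 and 9799. OGN, the small proteoglycan osteoglycin (chromosome 1, 70251553 to 70270135), had 13163, 17499.7 and 13155. COL3A1 was highest in replicate 2 and OGN was too, while EEF1A1 and COX1 were lowest there. Among the first 20 rows, 7 were mitochondrially encoded and 6 belonged to the matrix lists: besides COL3A1 and OGN these were SPARC, a collagen-binding glycoprotein, PRELP, a heparan sulfate-binding proteoglycan, FN1, fibronectin, and COL1A2, a chain of type I collagen. The remaining 7 were EEF1A1, the giant scaffold protein AHNAK, the fibroblast intermediate filament VIM, the endocytic receptor LRP1, the growth factor-binding protein IGFBP5, the actin-severing protein GSN and the secreted glycoprotein MYOC. VIM was nearly flat, with scaled counts of 6249, 6290.3 and 6362. MYOC, best known from the trabecular meshwork of the eye, had 9323, 5010.2 and 2564 and so differed 3.63-fold between its highest library, replicate 1, and its lowest, replicate 3.

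**Figure D1:**
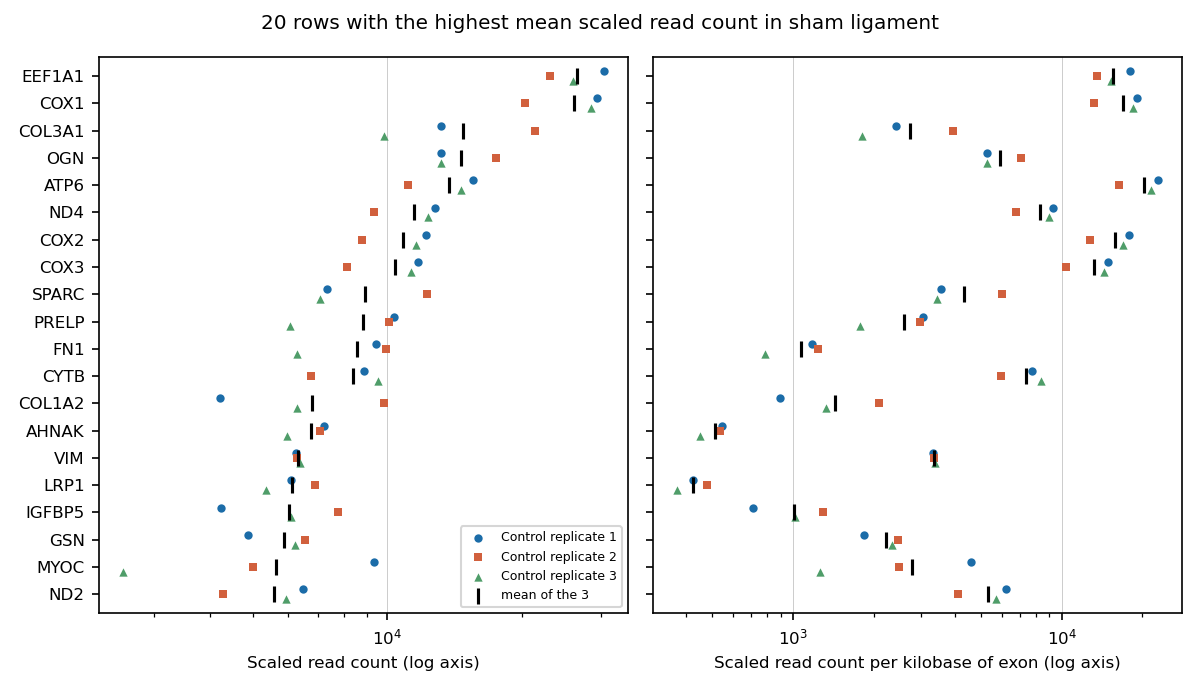
The 20 rows with the highest mean in the 3 sham libraries, ordered by mean scaled read count, shown as scaled read count (left, log axis) and as scaled read count per kilobase of exon (right, log axis). Points are single libraries and black ticks are means; VIM is the tightest of the 20 and MYOC spreads 3.63-fold, and division by length moves the long genes AHNAK, LRP1 and FN1 down and the short mitochondrial genes up.

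Per kilobase the order changed. ATP6, a mitochondrially encoded subunit of ATP synthase, led with 20226 ± 3445 scaled reads per kilobase (SD, n = 3). COX1 followed at 16927 ± 3269.5 and ATP8, another ATP synthase subunit, at 16404 ± 3311. The exons of ATP6 and ATP8 overlap in the deposited annotation, so reads of one may be counted for the other. Of the 15 rows highest per kilobase 10 were mitochondrially encoded. The other 5 were EEF1A1, FTH1, OGN, CST3 and SPARC. EEF1A1 was highest of these, at 15586 ± 2203 scaled reads per kilobase. FTH1, the heavy chain of the iron store ferritin, was at 5909 ± 989, and its row overlaps that of BEST1. OGN was at 5880.1 ± 1009 scaled reads per kilobase, within 1 SD of FTH1. CST3, the secreted cysteine protease inhibitor cystatin C, stood at 5368 ± 2107 and SPARC at 4328 ± 1435. The median over rows detected in all 3 libraries was 13.2 scaled reads per kilobase, the yardstick for the values that follow.

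Genes grouped by function divided the transcriptome unevenly. Mitochondrially encoded genes, all 13 rows detected, took 7.77%, 5.56% and 7.87% of the scaled reads. The 69 cytosolic ribosomal protein genes took 6.64%, 4.72% and 5.61% and filled 47 of the 100 highest rows per kilobase. Matrix genes, the union of 7 lists that cover elastic fibre, cross-linking, fibrillar and other collagens, small and large proteoglycans and glycoproteins, numbered 124 rows, of which 115 were detected in all 3 libraries, and took 9.14%, 11.5% and 7.97%. Replicate 2 was thus highest for matrix and lowest for the mitochondrial and ribosomal genes. The 72 nuclear-encoded respiratory chain genes summed to 0.474%, 0.4703% and 0.527%.

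**Figure D2:**
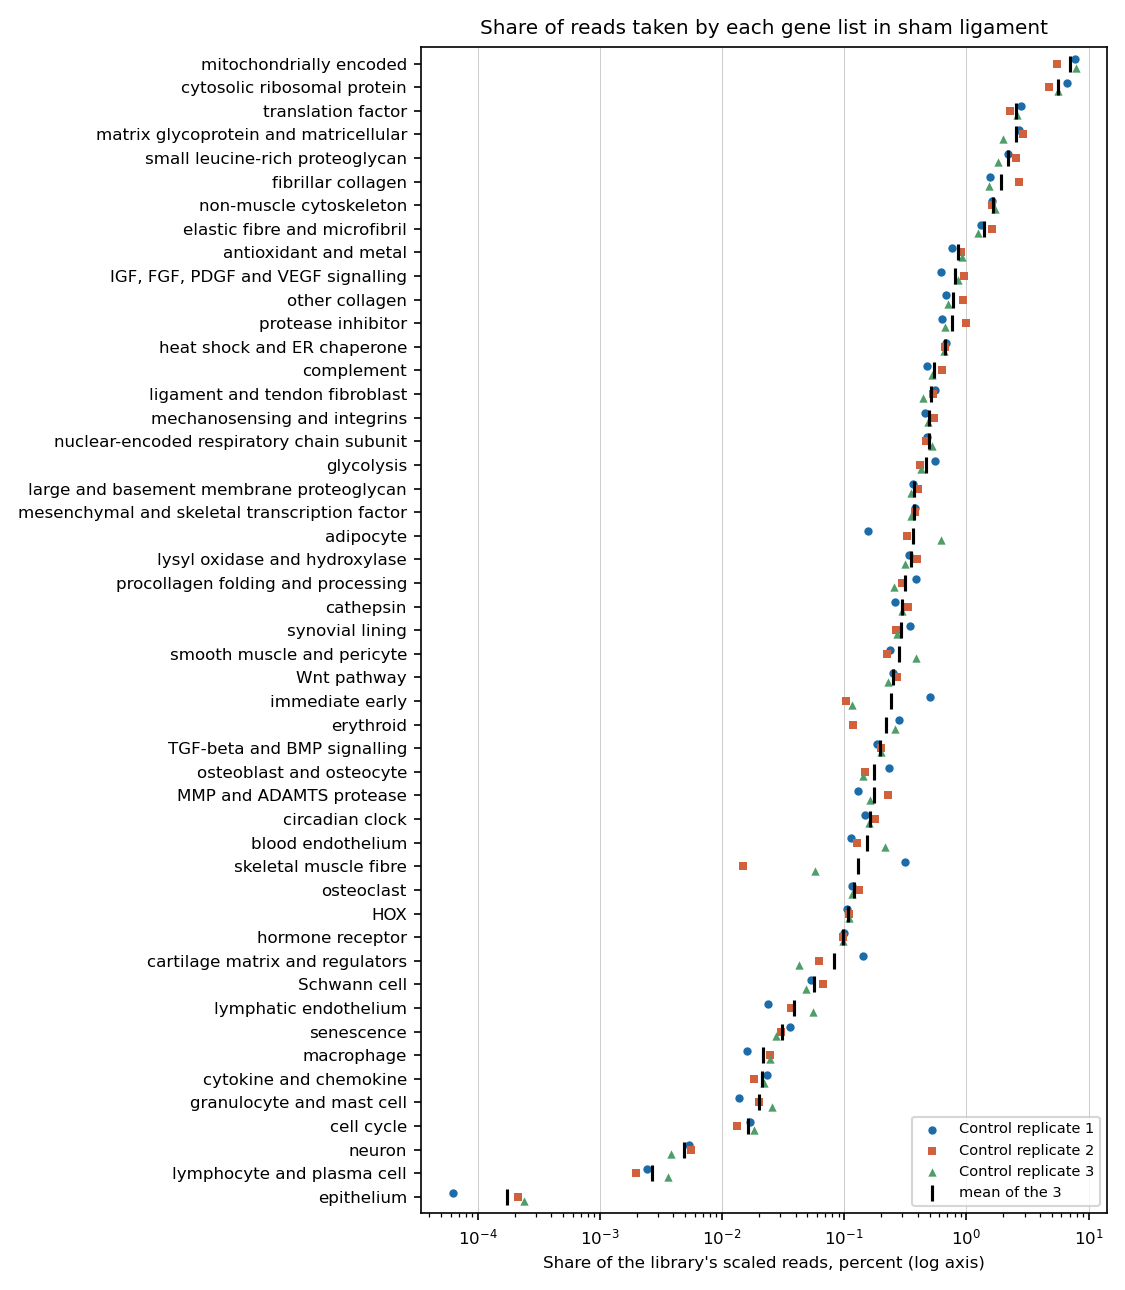
Share of each library's scaled reads taken by each gene list, in percent on a log axis, with lists ordered by their mean; points are the 3 sham libraries and black ticks their means. Mitochondrially encoded and ribosomal protein genes lead at 7.07% and 5.66%, the translation factor list (2.55%) is the third and the glycoproteins (2.53%) the fourth, and the skeletal muscle, adipocyte and immediate early lists show the widest gaps between libraries.

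The elastic fibre list held 17 rows, 16 of them with a mean of 10 or more, and took 1.32%, 1.62% and 1.24% of the scaled reads. ELN, elastin itself (scaffold Un0067, 654638 to 665917), stood at 1143, 1677 and 821 scaled reads per kilobase. Elastin was highest in replicate 2 and lowest in replicate 3. FBLN1, a fibulin that binds elastin and fibronectin, was higher than elastin in every library, at 2197, 2477 and 1968 scaled reads per kilobase. So was MFAP4, a microfibril-associated protein, at 1765, 2573 and 1898. MFAP5, a small glycoprotein that binds fibrillin, was at 943, 1366 and 901 scaled reads per kilobase, and the spread of ELN spans the gap between them. FBN1, fibrillin-1, the backbone of the microfibril (chromosome 17, 23801101 to 24060289), was far lower at 80.7, 138 and 83.4 scaled reads per kilobase, 0.0848 ± 0.0157 of the elastin level (SD, n = 3), and FBN2, the fibrillin of fetal tissue, had 0, 5 and 3 reads. FBN1 overlaps an unnamed locus row.

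Of the latent TGF-beta binding protein family, some members of which anchor the growth factor to microfibrils, 3 were abundant. LTBP2 was at 611, 540.0 and 451, LTBP4 at 545, 514 and 413 and LTBP3 at 508, 435 and 319 scaled reads per kilobase. LTBP1 was lower, at 89.4, 165 and 116. Each was above FBN1 in all 3 libraries (named after their values were seen). The LTBP4 and LTBP3 rows are locus rows of 1627 and 1539 bases, and whether they hold the whole genes was not tested. LOX, lysyl oxidase, which cross-links elastin and collagen (chromosome 3, 6327801 to 6342402), was at 891, 1039 and 764 scaled reads per kilobase, 0.777 ± 0.156 of elastin. The other enzymes of its list were more than 10 times lower. PLOD2, the lysyl hydroxylase of collagen telopeptides, averaged 56.1 ± 12.3 scaled reads per kilobase. LOXL3, a lysyl oxidase relative, averaged 49.2 ± 6.46, and LOXL1, the oxidase that associates with elastic fibres, 45.8 ± 16.1.

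The elastin row is 1220 bases in 17 exon blocks, and the next row on the same scaffold and strand, 2080 bases away with no row between, is the locus LOC103344988, with 15 blocks and 939 bases. The ratio of ELN to that locus per kilobase was 1.12 ± 0.0789 (SD, n = 3), so the levels of the pair moved together over the libraries. The ratio of ELN to COL3A1, a different gene, was also steady, at 0.450 ± 0.0233. Whether they belong to a single gene was not tested, and the locus has no symbol in the tables used. In the same table LAMC1 is split over 2 rows.

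Fibrillar collagens took 1.56%, 2.68% and 1.53% of the scaled reads, and all 11 chains were detected in every library. COL3A1 was highest, at 2424, 3943 and 1806 scaled reads per kilobase. COL1A2 (chromosome 10, 34497959 to 34533742) stood at 894, 2087 and 1330.3 and COL1A1 (chromosome 19, 37474894 to 37490691) at 659, 1127 and 737 scaled reads per kilobase. All 3 chains were highest in replicate 2, while the lowest library was replicate 3 for COL3A1 and replicate 1 for both type I chains. Type III collagen is the fibril of stretchable tissue, and its chain exceeded COL1A1 by 3.68, 3.50 and 2.45 times. COL1A2 exceeded COL1A1 by 1.36, 1.85 and 1.80 times, although type I collagen carries more alpha-1 than alpha-2 chains. Elastin exceeded COL1A1 by 1.74, 1.49 and 1.11 times and was 0.450 ± 0.0233 of COL3A1 (SD, n = 3), the steadiest of the 3 elastin to collagen ratios computed.

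Below these the chains fell off steeply. COL5A1, of the type V collagen that starts type I fibrils, averaged 317 ± 42.8 scaled reads per kilobase. Its partner COL5A2 averaged 259.6 ± 75.2. COL2A1, the collagen of cartilage, had only 20, 4 and 11 reads, or 2.12 ± 1.58 scaled reads per kilobase, far under the median of detected rows. Its partner COL11A1 was at 18.5, 3.54 and 3.16 and COL11A2 at 26.2, 0.847 and 4.06 scaled reads per kilobase, both highest in replicate 1. Of the 32 other collagens, 28 were detected in all libraries.

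Among those, type VI collagen, the beaded filament around cells, dominated. COL6A2 and COL6A1 averaged 726 ± 163 and 661 ± 231 scaled reads per kilobase and could not be ordered, their ratio running from 0.652 to 1.13 between libraries. COL6A3 was lower, at 0.140 ± 0.0211 of COL6A2 (named after its values were seen). COL8A1, a short-chain collagen, averaged 255 ± 63.7 scaled reads per kilobase. COL14A1, which coats fibrils, was at 110.5, 273 and 147, and replicate 2 was 1.86 times the next library. The basement membrane chain COL4A1 was at 88.9, 149.9 and 238 and COL4A2 at 66.4, 92.1 and 142 scaled reads per kilobase. Both were highest in replicate 3, unlike the fibrillar chains COL1A1, COL1A2 and COL3A1. Over all 43 collagen chains the share was 2.24%, 3.62% and 2.24%.

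The machinery that folds and trims procollagen was also present. PCOLCE2, an enhancer of procollagen C-proteinase, led its list with 1389.8, 467 and 395 scaled reads per kilobase and was highest in replicate 1, 3.52 times its level in replicate 3. PPIB, a prolyl isomerase of the endoplasmic reticulum, averaged 454 ± 48.96 scaled reads per kilobase. SERPINH1, the collagen chaperone, averaged 420.4 ± 35.9 and PCOLCE, the other enhancer, 155 ± 34.5. These 3 were highest in replicate 2. ADAMTS14, a procollagen N-proteinase, had no read.

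**Figure D3:**
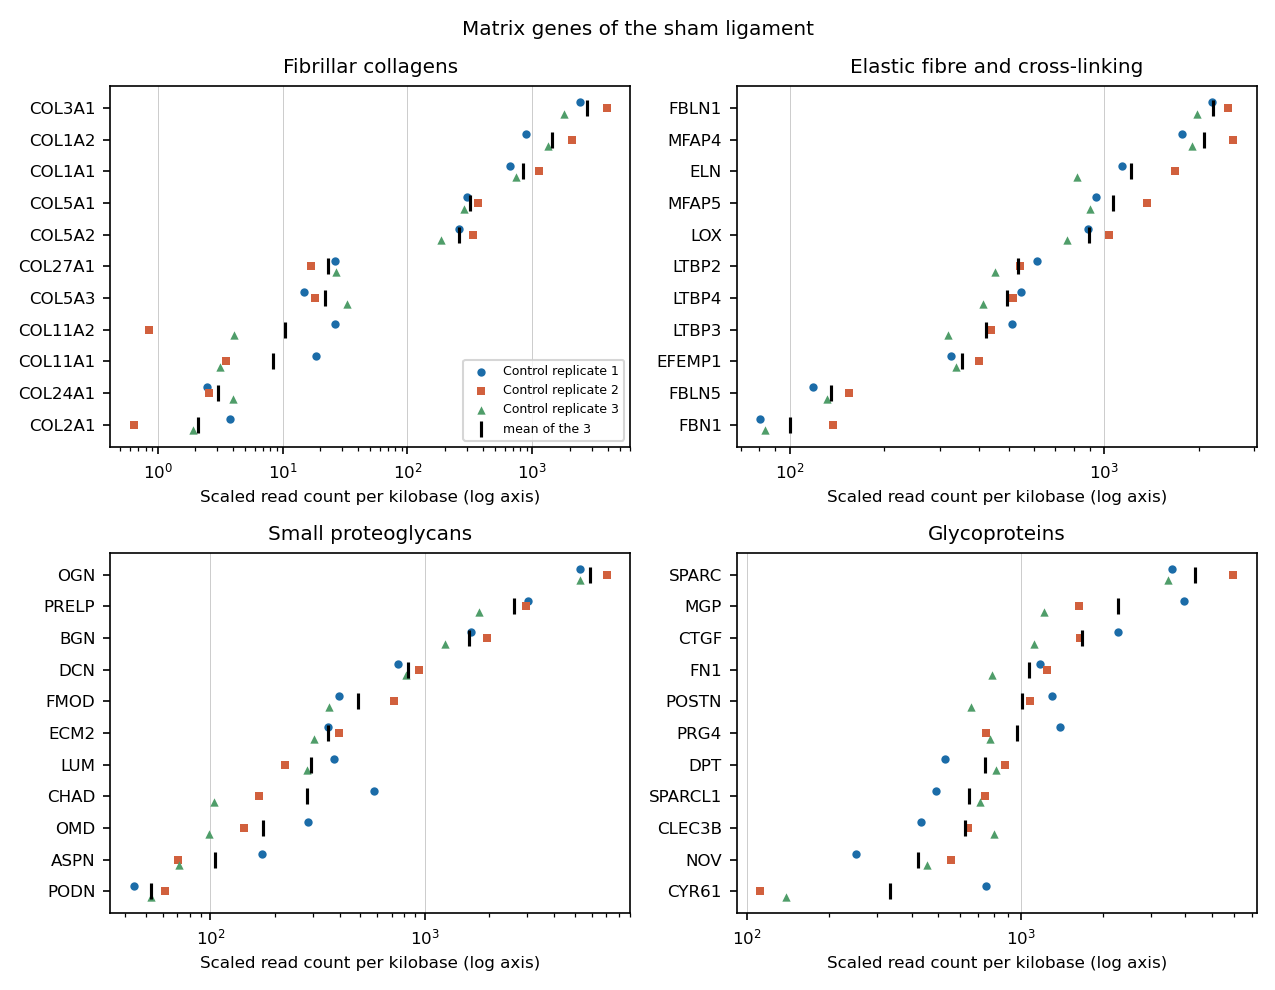
Scaled read count per kilobase (log axis) of matrix genes in the 3 sham libraries, in panels of fibrillar collagens, elastic fibre and cross-linking genes, small proteoglycans and glycoproteins, up to 11 of each ordered by mean; points are libraries and black ticks means. COL3A1, FBLN1, OGN and SPARC lead their panels, FBN1 lies below ELN in every library, and CHAD, MGP and CYR61 stand highest in replicate 1.

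Small leucine-rich proteoglycans bind collagen and set fibril width. They took 2.19%, 2.54% and 1.83% of the scaled reads. OGN led with 5299, 7045 and 5296 scaled reads per kilobase. PRELP followed with 3037, 2965 and 1778, and BGN, biglycan, with 1639, 1949.7 and 1239. Replicate 3 was lowest or tied for lowest in all of them. DCN, decorin, often the main proteoglycan of tendon, was at 750.3, 941 and 817 scaled reads per kilobase, below those 3 genes in every library. CHAD, chondroadherin, a leucine-rich protein of cartilage that binds integrin, was at 578, 169 and 104 scaled reads per kilobase. Its level in replicate 1 was thus 3.42 times that in the next library. KERA, EPYC and OPTC, of cornea, epiphysis and eye, had means of 2.49, 1.63 and 0 scaled reads per kilobase.

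The large proteoglycans and laminins took 0.374 ± 0.02702% of the scaled reads (SD, n = 3). The laminin chain LAMB2 averaged 303 ± 48.0 scaled reads per kilobase, below decorin in every library. The chains LAMC1 and LAMA2 averaged 121 ± 15.1 and 88.1 ± 19.2. ACAN, aggrecan (scaffold Un0236, 62355 to 103247), was at 128, 66.8 and 34.1 scaled reads per kilobase, highest in replicate 1 and lowest in replicate 3. NCAN, a brain proteoglycan, had no read.

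Glycoproteins and matricellular proteins took 2.69%, 2.89% and 1.996%. SPARC stood at 3559.8, 5984 and 3440.0 scaled reads per kilobase, highest in replicate 2. MGP, matrix Gla protein, an inhibitor of calcification (chromosome 8, 24713132 to 24716654), was at 3948, 1632 and 1218, highest in replicate 1. CTGF, a matricellular target of TGF-beta and YAP, was at 2271, 1643 and 1124 scaled reads per kilobase with the same order of libraries as MGP. FN1 was at 1182, 1244 and 788 scaled reads per kilobase. VTN, vitronectin of plasma, had no read in any library.

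PRG4, lubricin, the lubricant of synovial and tendon surfaces, was abundant at 1394, 749 and 773 scaled reads per kilobase (chromosome 16, 84071632 to 84086913), and its spread overlaps that of FN1. The other synovial lining markers were lower: CD55, a complement regulator, averaged 61.7 ± 10.8, the chloride channel protein CLIC5 13.8 ± 8.29 and the hyaluronan synthase HAS1 3.47 ± 2.58 scaled reads per kilobase. While PRG4 was highest in replicate 1, CD55 and CLIC5 were highest in replicate 3.

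The MMP and ADAMTS list was low beside the protease inhibitor list, which also holds inhibitors of other proteases, among them CST3. The median member of the MMP and ADAMTS list was at 4.29 scaled reads per kilobase, or 7.86 over members detected in all 3 libraries. That of the protease inhibitor list was at 454. MMP2, a gelatinase that also cleaves elastin, was the highest of the MMP and ADAMTS list at 334, 623 and 319 scaled reads per kilobase. ADAMTS1, a protease of versican and aggrecan, averaged 115 ± 35.9, the membrane-bound MMP14 69.7 ± 21.8 and the procollagen N-proteinase ADAMTS2 38.01 ± 14.3. All 4 of these were highest in replicate 2. MMP1, MMP3 and MMP8 had at most 2 reads in any library and MMP7 had none, whereas MMP9 had 1, 3 and 68 reads and MMP13 3, 18 and 64, most of them in replicate 3 (named after their values were seen).

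CST3 was the leading inhibitor, at 3486, 7644 and 4973 scaled reads per kilobase, and was 2.19 times higher in replicate 2 than in replicate 1. SERPINF1, the anti-angiogenic serpin PEDF, was at 876, 1922 and 1044 scaled reads per kilobase with the same order of libraries. TIMP3, the inhibitor that binds matrix, and TIMP2 were steadier, at 1027 ± 104 and 996 ± 168 scaled reads per kilobase, each above MMP2 in all 3 libraries. TIMP1 was lower, at 139, 159 and 113 scaled reads per kilobase, and below MMP2 in every library (named after its values were seen). CTSK, cathepsin K, a collagen- and elastin-degrading lysosomal protease, was at 860.2, 968 and 793 scaled reads per kilobase and led its list ahead of CTSB at 541 ± 74.3, CTSD at 321 ± 50.7 and CTSA at 208 ± 72.8. CTSA overlaps another row. CTSK is also a marker of osteoclasts, and the osteoclast markers CALCR, DCSTAMP and OCSTAMP had no read in any library, while ACP5 had 1, 3 and 20.

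The ligament and tendon fibroblast markers were split. Beside decorin, DPT, a small protein that binds it, was at 528, 878 and 813 scaled reads per kilobase. FMOD, fibromodulin, was at 399, 714 and 357, and LUM, lumican, at 376, 222 and 283. FMOD was highest in replicate 2 and LUM lowest there. THBS4, a thrombospondin of tendon, was at 188, 86.1 and 58.97 scaled reads per kilobase. PDGFRA, a PDGF receptor of fibroblasts, was at 127, 111 and 81.03 and TNC, tenascin C, at 28.7, 41.7 and 51.1, with replicate 3 lowest for PDGFRA and highest for TNC. The tendon transcription factor MKX lay under the median of all detected rows, with 20, 12 and 16 reads and 4.82 ± 1.58 scaled reads per kilobase. TNMD, tenomodulin, the marker of mature tendon cells, had 0, 1 and 0 reads. SCX and COMP were not analysed here. Of the 8 defining markers with a row 7 were thus detected in every library, and the tendon-defining gene TNMD was at or near 0.

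Transcription factors of skeletal and mesenchymal patterning summed to 0.379%, 0.376% and 0.355% of the scaled reads. Gene by gene they were no steadier than other rows: the median ratio of the highest to the lowest library was 1.36 over the 24 members with a mean of 10 or more, against 1.33 over all 10190 such rows. NFIX, a nuclear factor I family member, was at 401, 433 and 370.1 scaled reads per kilobase. ZIC1, a zinc finger factor of neural tissue and dorsal somite, was at 232, 227 and 192, and FOXC1, a forkhead factor of paraxial mesoderm, at 239, 215 and 174. All 3 were lowest in replicate 3, by small margins. ERG, an ETS factor of endothelium and of articular cartilage, was at 209, 188 and 195 scaled reads per kilobase. SOX9, the factor of chondrocytes, was at 40.4, 16.7 and 13.7 scaled reads per kilobase. TWIST2, PAX1 and TCF21 had no read in any library.

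The HOX genes, which record position along the body axis and are kept by adult fibroblasts, differed widely in level. Of 36 rows 27 were detected in every library and 5 had no read. Summed per kilobase in paralog groups set after the values were seen, paralogs 1 to 3 gave 73.3 ± 7.17, paralogs 4 and 5 gave 96.3 ± 11.4, paralogs 6 to 8 gave 293 ± 17.4, paralogs 9 and 10 gave 351 ± 32.3 and paralogs 11 to 13 gave 6.66 ± 4.42 (SD, n = 3). These groups hold 8, 5, 7, 7 and 9 rows. Their sums rose to paralogs 9 and 10 and dropped more than 10-fold after them, but single genes did not follow that order. HOXB5 and HOXC5 averaged only 4.16 and 6.71 scaled reads per kilobase, and HOXB9 and HOXD9 only 4.82 and 11.8. HOXA9 led at 113, 197 and 129.8 scaled reads per kilobase and HOXA6 followed at 108, 145 and 119.5, both highest in replicate 2. HOXA10 was at 82.7, 67.1 and 74.97 and HOXC10 at 83.8, 49.3 and 51.3, both highest in replicate 1. HOXD4, outside the highest paralog groups, was at 45.9, 58.8 and 55.5, above HOXC9 in every library (both named after their values were seen). Of the 23 members with a mean of 10 or more 4 differed 2-fold or more between libraries, while 11.02% of all such rows did. HOXD10 had 33 reads in replicate 1, 0 in replicate 2 and 7 in replicate 3. The whole list took 0.106%, 0.109% and 0.109% of the scaled reads.

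**Figure D4:**
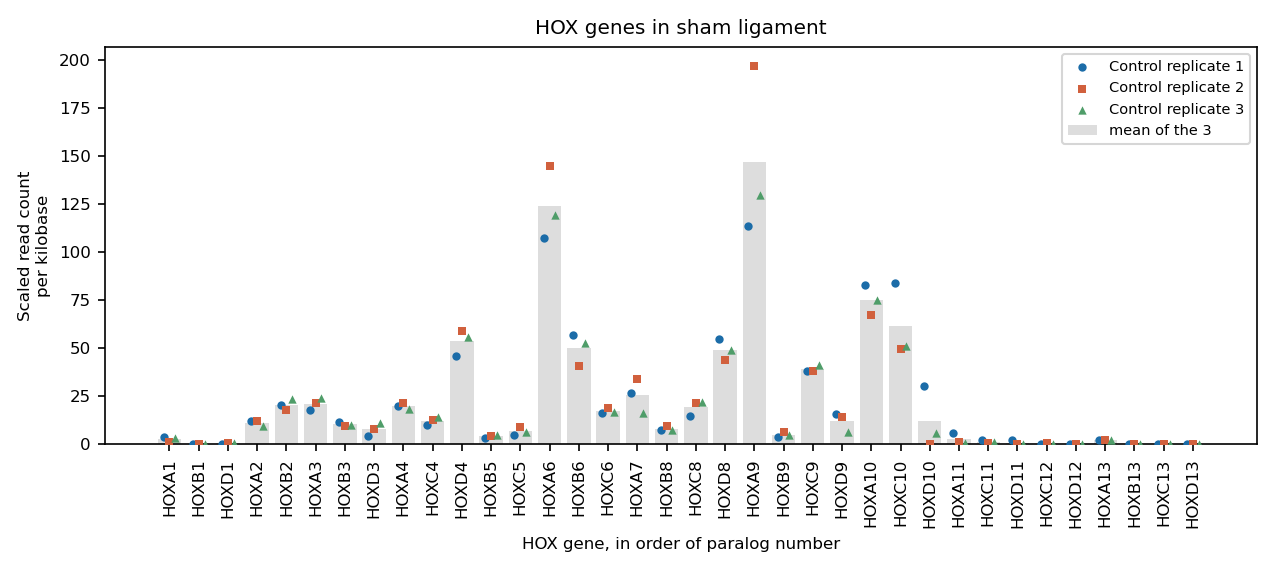
Scaled read count per kilobase (linear axis from 0) of the 36 HOX genes, ordered by paralog number; grey bars are means of the 3 sham libraries and points are single libraries. The highest bars are HOXA9 and HOXA6, members of the same paralog group differ widely, levels are near 0 from paralog 11 on, and HOXD10 is seen mainly in replicate 1.

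Among signalling genes of growth and repair, IGF-binding proteins led the growth factor list. IGFBP6, which prefers IGF2, averaged 2371 ± 549.9 scaled reads per kilobase, above IGFBP7 at 1324 ± 126 and IGFBP5 at 1006 ± 292. IGFBP2 was at 91.3, 278 and 617 scaled reads per kilobase, lowest in replicate 1 and highest in replicate 3. IGF1 itself was at 1.74, 4.63 and 7.11 scaled reads per kilobase (named after its values were seen). In the TGF-beta and BMP list, BMP4, a bone morphogenetic ligand, was highest at 215, 168 and 136 scaled reads per kilobase. The type II receptor TGFBR2 averaged 114 ± 12.4 and the co-receptor TGFBR3 80.6 ± 10.04. The ligand TGFB3 averaged 58.3 ± 5.03 scaled reads per kilobase and was below TGFBR2 in every library. TGFB1 was lower at 14.4, 38.4 and 24.5 scaled reads per kilobase, from only 13, 41 and 24 reads (named after its values were seen). The TGF-beta list summed to 0.186%, 0.199% and 0.199% of the scaled reads, although 6 of its 22 members with a mean of 10 or more differed 2-fold or more between libraries.

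In the Wnt list CTNNB1, beta-catenin, averaged 406 ± 16.03 scaled reads per kilobase, followed by secreted proteins of the list. These were SFRP4, at 408, 391 and 228 scaled reads per kilobase, DKK3, a Dickkopf family member, at 224, 217 and 151, and SFRP2, at 53.3, 217 and 161. SFRP2 was 4.03 times as high in replicate 2 as in replicate 1, and DKK1 had no read. Among mechanosensing genes the integrin chain ITGB5 was at 501, 774 and 453 and ITGB1 at 395, 477 and 442 scaled reads per kilobase, both highest in replicate 2. Talin, TLN1, which ties integrins to actin, averaged 130.0 ± 9.56, and the Hippo effector WWTR1, known as TAZ, 91.2 ± 3.11. PIEZO2, a stretch-gated channel, was at 1.23 ± 0.265 and ANKRD1, a target of YAP and a gene of striated muscle, was at 62.98, 0 and 0 scaled reads per kilobase, with reads in replicate 1 only (both named after their values were seen).

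Receptors for hormones summed to 0.0991%, 0.0982% and 0.0975% of the scaled reads. The sum was even, but the members moved in both directions, with a median ratio of highest to lowest of 1.41 over the 10 with a mean of 10 or more. The thyroid hormone receptor THRA averaged 68.2 ± 4.51 scaled reads per kilobase and its relative THRB 27.2 ± 4.61. NR3C1, the glucocorticoid receptor, averaged 54.99 ± 4.93, and GHR, the growth hormone receptor, 47.6 ± 8.09. ESR2, an oestrogen receptor, had no read, and the vitamin D receptor VDR had 0, 2 and 1 reads. Of the clock genes, the nuclear receptors NR1D2 and NR1D1 averaged 128 ± 20.8 and 112 ± 32.5 scaled reads per kilobase. The repressor BHLHE40 averaged 80.6 ± 25.4, and TEF, an activator of D-box genes, 77.8 ± 1.83. The share of the clock list stayed between 0.147% and 0.179%.

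Defence against oxidation and inflammation was uneven across genes. Beside FTH1, the light ferritin chain FTL was at 2081, 2102 and 2152 scaled reads per kilobase, with little spread. The secreted glutathione peroxidase GPX3 averaged 1751 ± 184 and the extracellular superoxide dismutase SOD3 750.4 ± 113, both lowest in replicate 3. Complement genes took 0.477%, 0.636% and 0.521% of the scaled reads, led by CLU, clusterin, a secreted chaperone, at 1381, 923 and 698 scaled reads per kilobase. SERPING1, the C1 inhibitor, was at 619, 732 and 498, the protease C1S at 252, 387 and 299 and factor B, CFB, at 183, 364 and 226. The last 3 were highest in replicate 2 and CLU in replicate 1, and C5 had no read. The cytokine list had a median of 3.42 scaled reads per kilobase, or 7.63 over members detected in all 3 libraries. The chemokine CXCL12 averaged 30.5 ± 9.196 scaled reads per kilobase, CSF1 and IL34, ligands of the macrophage receptor CSF1R, 24.2 ± 2.51 and 20.1 ± 1.87, and the monocyte attractant CCL2 14.9 ± 12.8. IL1A had no read. Genes of the cell cycle had a median of 1.23 scaled reads per kilobase. Over members detected in all 3 libraries it was 2.34, under the 13.2 of all detected rows. PCNA, the replication clamp, was highest of the list at 51.1 ± 7.56.

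Markers of neighbouring cell types were present to very different degrees. FABP4, the fatty acid carrier of fat cells (chromosome 3, 97155361 to 97159722), was at 911, 1773 and 3659.8 and ADIPOQ, adiponectin (chromosome 14, 82535888 to 82546612), at 299, 454 and 809.7 scaled reads per kilobase. CIDEA, a lipid droplet protein, was at 75.5, 216 and 391 and DGAT2, which makes triglyceride, at 64.9, 189 and 329. Replicate 3 was highest and replicate 1 lowest for all 4. All 14 adipocyte genes were highest in replicate 3. Over all 10190 rows with a mean of 10 or more, 36.9% were highest in replicate 1, 31.5% in replicate 2 and 31.6% in replicate 3, the background for this and the like counts below. The adipocyte list took 0.156%, 0.327% and 0.616% of the scaled reads. The summed scaled count of the 5 defining markers with a row was 1522, 3070.5 and 5563.

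Skeletal muscle genes took 0.313%, 0.0148% and 0.05803% of the scaled reads, the widest gap of the 49 lists. The summed scaled count of the 4 defining markers with a row, ACTA1, MYH1, CKM and MYLPF, was 2066, 8.78 and 272. ACTA1, the actin of skeletal muscle (scaffold Un0140, 96026 to 98924), had 971, 0 and 95 reads and a level of 612, 0 and 55.2 scaled reads per kilobase. TNNT1, slow troponin T, had 473, 1 and 75 reads, MYLPF, a fast myosin light chain, 170, 0 and 15 and MYL1 249, 0 and 35. The list has 18 rows, of which 11 were detected in every library. Of the 17 members with a mean of 10 or more, a mean that includes replicate 1, 16 were highest in replicate 1. With 1 added to each value, the median member was 70.8 times higher in replicate 1 than in replicate 2. That ratio depends on the added 1 for members at or near 0 in replicate 2. The exception was TPM3, a tropomyosin also made by other cells, at 82.01, 67.98 and 84.2 scaled reads per kilobase. Without replicate 1 the mean share of the list was 0.0364%, against 0.129% with it.

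Markers of vessels, nerve and blood differed widely in level. The blood endothelium markers PECAM1, VWF, CDH5, KDR and TEK summed to scaled counts of 549, 763 and 1578, and 12 of 13 endothelium genes were highest in replicate 3. ERG was the exception, with its even level given above. ENG, the TGF-beta co-receptor of endothelium, was at 70.2, 83.1 and 114 scaled reads per kilobase, PECAM1, a junction protein, at 43.7, 62.1 and 122 and VWF, the clotting factor of von Willebrand, at 27.8, 44.2 and 96.5. Of 13 smooth muscle and pericyte genes 9 were highest in replicate 3, 3 in replicate 1 and 1 in replicate 2. ACTA2, smooth muscle actin, was at 422, 481 and 893 scaled reads per kilobase, the myosin light chain MYL9 at 246, 246 and 378 and the actin-binding TAGLN at 197, 171 and 349. MYH11, the myosin of smooth muscle, was at 143, 153 and 253, so that replicates 1 and 2 were alike and replicate 3 higher in all 4. DES, the intermediate filament desmin of smooth and skeletal muscle, went the other way, with scaled counts of 217, 34.3 and 68.7, highest in replicate 1 (named after its values were seen). The lymphatic chemokine CCL21 was at 33.1, 72.001 and 221 scaled reads per kilobase, again highest in replicate 3.

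Schwann cell genes were led by PMP22, also made by fibroblasts, at 221, 225 and 168, and MBP, myelin basic protein, at 74.1, 143 and 61.4 scaled reads per kilobase. The neuron markers SNAP25 and SYT1 had at most 6 reads in any library, and RBFOX3 had none. NEFL and TUBB3, of the same marker set as SNAP25 and SYT1, had higher mean scaled counts. All 4 markers of that set were detected in every library, with summed scaled counts of 49.96, 35.1 and 25.2. HBB2, the beta-globin of red cells, was among the most abundant rows, at 4673, 1790.0 and 4189 scaled reads per kilobase and the 21st row per kilobase by its mean. It took 0.248%, 0.0963% and 0.233% of the scaled reads and was lowest in replicate 2. ALAS2, which starts haem synthesis in red cells, was at 59.1, 17.5 and 41.5 scaled reads per kilobase.

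Of the macrophage genes, the complement subunit C1QC averaged 31.4 ± 10.2, CSF1R 22.1 ± 5.36 and TYROBP, a signalling adaptor, 21.8 ± 6.04 scaled reads per kilobase. The lymphocyte markers CD3E, CD2, CD79B and MS4A1 had at most 7 reads in any library, and only JCHAIN, of plasma cells, reached a mean of 10. The neutrophil proteins S100A8 and S100A9 were at 85.2, 36.1 and 107 and 72.8, 36.4 and 96.1 scaled reads per kilobase, lowest in replicate 2 like HBB2. The mast cell protease CPA3 had no read. KIT, of the same granulocyte and mast cell marker set, had 54, 270 and 150 reads, highest in replicate 2 (named after its values were seen).

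Cartilage and bone markers ranged from abundant to absent. SPP1, osteopontin, a secreted glycoprotein of bone and of activated macrophages and fibroblasts (chromosome 15, 62156416 to 62163765), was at 2359, 1404 and 1251 scaled reads per kilobase, highest in replicate 1. The osteoblast markers BGLAP, DMP1 and SP7 had at most 3 reads in any library, and IBSP, bone sialoprotein, had 12, 47 and 95. RUNX2, of the same marker set, had a higher mean scaled count than IBSP. Of the 6 markers in that set, SPP1 among them, 3 were detected in every library. Of the cartilage genes CHAD, ACAN, SOX9 and COL11A2 have their levels above. COL9A1 had 1, 0 and 1 reads and MATN3 0, 3 and 6. Epithelial markers were at or near 0, with no read of EPCAM, KRT18 or CLDN4 and at most 2 reads of CDH1, KRT5 or KRT8 in any library, an epithelium share of 0.000172%.

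The 3 libraries resembled each other closely for most genes. Among the 2911 rows with a mean scaled count of 100 or more, the ratio of the highest to the lowest library, with 1 added to each, had a median of 1.24, a 10th percentile of 1.08 and a 90th percentile of 1.71. The spread beyond counting error was a coefficient of variation of 11.8%, beside 6.94% from counting. Across the 17029 rows with a read, log2(value + 1) correlated between libraries with Pearson's r of 0.952 for replicates 1 and 2, 0.951 for replicates 1 and 3 and 0.969 for replicates 2 and 3, a description over genes that share depth and are not independent replicates. Each pair differed by more than counting error, with a chi-square per row of 28.0, 22.4 and 16.8 for the same pairs.

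Of the genes with a mean of 300 or more that differed least, PTMS, parathymosin, was at 581, 573 and 573 scaled counts, CALM2, a calmodulin gene, at 729, 733 and 740.2 and VIM as given above. The others were PDIA4, a disulfide isomerase, the splicing factor SF3B1, the RNA-binding protein HNRNPU, the cortical actin protein CTTN and the calcium-binding S100A11, with ratios of highest to lowest from 1.02 to 1.03. These 8 were picked for their small ratios from 784 rows, and counting error at such depths is larger than these differences.

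A minority of genes differed strongly. Of the 2911 rows 168 (5.77%) differed 2-fold or more and 47 (1.61%) 4-fold or more, of which 24 were highest in replicate 1, 20 in replicate 3 and 3 in replicate 2. The 4-fold genes were 7 each of the adipocyte, immediate early and skeletal muscle lists, 3 glycoproteins, a few members of other lists and 17 genes in no list. Without replicate 1, and with the minimum mean taken over replicates 2 and 3, no row reached 4-fold. That minimum drops rows that are low in both, so the 47 do not all rest on replicate 1. Among the dropped rows, MYH1 had scaled counts of 7.99 and 143.5 in replicates 2 and 3, and TNNT1 0.799 and 65.2. Both differed more than 4-fold between these libraries.

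Replicate 1 stood apart by its immediate early genes, which are switched on within minutes of a stimulus, beside its muscle genes. FOS, a subunit of the AP-1 factor (chromosome 20, 29860066 to 29863336), had scaled counts of 2104, 39.9 and 72.2. Its relative FOSB had 539, 5.59 and 16.5 and EGR1, a zinc finger factor, 1458, 167 and 166. Replicate 1 was 8.69 or more times the next library for all 3, and for EGR1 the other two were alike. BTG2, an anti-proliferative gene, was at 354, 31.1 and 38.3, and CYTL1, a secreted protein known from cartilage, at 412, 27.9 and 30.4 scaled counts. Of 18 immediate early genes 17 were highest in replicate 1, the exception being EGR2, and the list took 0.502%, 0.103% and 0.115% of the scaled reads.

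Cartilage genes and ribosomal protein genes were also highest in replicate 1. Of 9 cartilage genes with a mean of 10 or more 8 were highest there, with list shares of 0.143%, 0.0626% and 0.0424%. LECT1, chondromodulin, was the exception, with 1, 9 and 33 reads (named after its values were seen). The cartilage list has 17 rows, and those under the minimum were not counted. That mean includes replicate 1, so a gene high only there can pass by it, and the count gives no separate support. Of 69 ribosomal protein genes 67 were highest in replicate 1, but by a median of only 1.24-fold over replicate 3. Glycolytic genes did likewise in 14 of 17, with GAPDH at 1426, 972 and 957, ENO1 at 636, 562 and 454, ALDOA at 738, 412 and 478 and PKM at 499, 315 and 278 scaled reads per kilobase. Skeletal muscle genes were highest in the same library, and their part in the cartilage, ribosomal and glycolytic values was not tested.

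The genes that led in replicate 2 did so by small ratios. GPNMB, a membrane glycoprotein of macrophages and osteoblasts, had scaled counts of 229, 593 and 226, FBLN7, a fibulin, 419.5, 1124 and 560.2 and ARNT2, a partner of bHLH-PAS factors, 53.7, 175 and 92.2. MBP, MMP2 and COL14A1, described above, completed its 6 leading genes. Replicate 2 was highest in 10 of 17 proteases, 7 of 10 cathepsins, 8 of 10 protease inhibitors and 10 of 16 elastic fibre genes, but in 9 of 24 glycoproteins, 9 of 20 other collagens, 5 of 11 fibrillar collagens and 4 of 12 large proteoglycans. Schwann cell genes were highest there in 7 of 8, and their part in these values was not tested.

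Replicate 3 was marked by fat and vessels. LIPE, hormone-sensitive lipase, had scaled counts of 67.9, 98.2 and 251, TINAGL1, a basement membrane protein, 97.1, 98.2 and 225 and IGFBP2 123, 375 and 834. TGM2, tissue transglutaminase, was at 82.02, 75.9 and 181, VWF, von Willebrand factor, at 239, 381 and 832 and MC5R, a melanocortin receptor, at 19.8, 110.2 and 231 scaled counts. The summed markers of fat and of blood endothelium, given above, were highest in the same library, and their part in these 6 genes was not tested.

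As medians over list members, relative to each gene's mean over the libraries on the log2(value + 1) scale, skeletal muscle deviated by 3.30, -2.87 and 0.09, adipocyte genes by -1.14, 0.16 and 1.01 and immediate early genes by 1.12, -0.73 and -0.47. Over all 10190 rows with a mean of 10 or more the medians were 0.00, 0.01 and -0.01. Of 47 lists with at least 3 such members, 7 had medians that ranged over 1 or more between libraries and 15 had medians within 0.2. A median near 0 can hide members that move in opposite directions: the fibrillar collagens were within 0.2, with a median ratio of highest to lowest of 2.18 over their 11 chains. By that ratio the cytoskeleton list, at 1.19, and the heat shock and chaperone list, at 1.21, differed least, against 1.33 over all 10190 rows. Heat shock and chaperone genes took 0.686%, 0.672% and 0.653% and cytoskeletal genes 1.62%, 1.62% and 1.71% of the scaled reads.

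**Figure D5:**
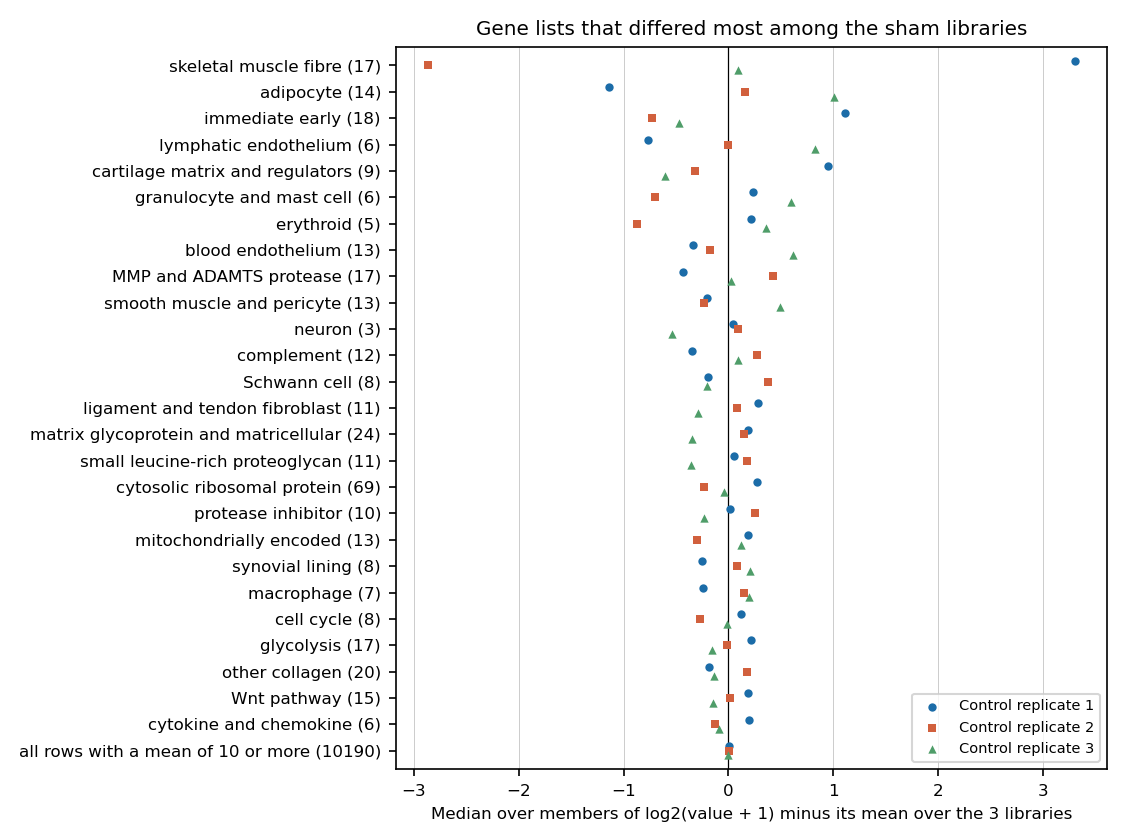
Median deviation of list members from their own mean over the 3 sham libraries, on the log2(value + 1) scale, for the gene lists that differed most; numbers in brackets count members with a mean scaled count of 10 or more. Skeletal muscle spans 3.30 in replicate 1 to -2.87 in replicate 2, adipocyte, lymphatic and endothelium genes sit highest in replicate 3, and the line over all 10190 rows sits at 0.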

How the data were processed

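RNA of rabbit ligamentum flavum was sequenced as strand-keeping libraries, per the labels' protocols. Reads were aligned with TopHat, per the submitters' processing notes, to oryCun2, and Cufflinks was used, per the design text of the series. Neither versions nor the counting tool, strand setting or annotation is given in the sources used here. Values of genes with an overlapping, antisense or near-identical partner are therefore uncertain, among them those with many processed copies (EEF1A1, FTH1, GAPDH, ribosomal proteins and globins) and, by exon overlap, ATP6, FTH1, ATP8, FBN1, CFB, IGFBP7, PPIB, CTSA, THBS4, HOXA10, LOXL3, IL34, KDR, KERA, BGLAP and CALCR. The authors deposited a signal per gene, a read count divided by 1 size factor for each library, named TMM in the title of the deposited table. In the 3 sham libraries 100% of the deposited values were whole multiples of the smallest (tolerance 1e-06), and dividing by it gave the reads. Coordinates and exon lengths are those of the deposited table. Symbols for 764 of 8020 locus identifiers came from RefSeq on another assembly (mOryCun1.1), for names only, and 700 were used.

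Shares, levels per kilobase, ratios and spreads were computed in Python 3.11.15 with numpy 2.4.6 and pandas 2.3.3, and the spread estimator was tested on simulated counts. Spread was described for rows with a mean of 100 or more, and list deviations for a mean of 10 or more. No comparison of groups was made. The members and the 49 gene lists were chosen with earlier results of these data known. Genes were named by rule: the 20 highest rows, the 15 highest per kilobase, up to 4 highest members of each list with the markers at 0, a fixed panel, 6 genes highest in each library and the 8 tightest with a mean of 300 or more. Other genes in the text, among them markers of cell types and members that depart from their list, were named after their values were seen. Alternatives were levels without division by length, other minimum means, other pseudocounts, other scalings and leaving out each library.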

Additional observations from a re-analysis of the deposited data

How the results depend on the processing

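Of 70 alternative values 55 moved by less than the spread between libraries or within 1.5 times. Counted per kilobase, 189 rows held 50% of the signal, against 574. The ELN to COL1A1 ratio of 1.45 became 0.369 without division by length, 0.450 over COL3A1 and 0.8996 over COL1A2. The count of genes with a 4-fold spread, 47, was 111, 14 and 2 with minimum means of 30, 300 and 1000. It ran from 0 to 50 when each library was left out. The 0 was without replicate 1, with the minimum mean of 100 taken over replicates 2 and 3. The spread beyond counting, 11.8%, was 15.6% and 20.7% with minimum means of 300 and 1000 and ran from 10.03% to 13.8% when each library was left out. The mean correlation of 0.957 was 0.893 and 0.972 with pseudocounts of 0.1 and 5, and 0.929 and 0.909 with minimum means of 10 and 100. The cause was not tested for any of these. The skeletal muscle share rests on replicate 1, and the adipocyte share ran from 0.242% to 0.471% when each library was left out. No paired analysis was possible because 1 group was described and no test was made. At these depths levels near 3 reads are limited by counting error.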

Other observations

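Genes outside the lists held some of the widest gaps between sham libraries. They were picked after their values were seen and no explanation was tested. SCGB1D1, a secretoglobin, had scaled counts of 92.4, 640.4 and 902 and SNCG, gamma-synuclein, 79.2, 235 and 437, both lowest in replicate 1. AQP4, a water channel, was at 36.8, 123 and 177 and VCAM1, a leukocyte adhesion molecule, at 53.7, 153 and 263, in the same order. CDO1, cysteine dioxygenase, went the other way at 647, 56.7 and 80.03 scaled counts, as did ENO3, the enolase of muscle, at 278, 3.99 and 34.8 and MELTF, a melanotransferrin, at 260.2, 54.3 and 40.9. The locus LOC108178831, which has no symbol, was at 0.943, 172 and 217, nearly missing from replicate 1.

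By position, the 13 mitochondrial rows held 7.06% of the mean scaled signal. Chromosome 7, with 3.91% of the rows, held 5.35%, and chromosome X, with 2.92% of the rows, held 1.78%. Rows on unplaced scaffolds, where ELN and COL2A1 lie, were 29.3% of the rows and 23.0% of the signal.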
